A study of Mus musculus with 24 samples.

Results

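The genes described here are those of hepcidin and of iron handling in mouse liver: Hamp and its neighbouring copy Hamp2, the ligand gene Bmp6, the BMP-SMAD target genes Id1 and Smad7, the transferrin receptor genes Tfrc and Tfr2, the ferritin chain genes Fth1 and Ftl1, and the ferroportin gene Slc40a1. They were chosen by gene symbol, with earlier results of these data known, and all 10 were found among the 53677 gene identifiers of the count table. All 10 passed the filter on low counts, which kept 14533 genes. The study measured liver RNA of 2 inbred strains by sequencing, in a project on binding of the transcription factor TCF7L2 and on open chromatin. The groups were 129S1/SvImJ mice on a high-fat diet (n = 6), 129S1/SvImJ mice on chow (n = 5), C57BL/6J mice on a high-fat diet (n = 7) and C57BL/6J mice on chow (n = 6). The labels name no transgene or targeted allele in any group, and they give no sex, age, diet composition or length of feeding. Each library came from 1 mouse. The mouse identifiers of each group begin with 1 of 2 numbers, and no number occurs in another group. What these numbers mark is not given. The tests treat mice that share a number as independent, so the p-values measure the spread between these mice as they were sampled.

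Hepcidin is a peptide hormone made by hepatocytes. It binds ferroportin, the iron exporter, and leads to its breakdown, so that high hepcidin holds iron inside gut cells, macrophages and hepatocytes. BMP6, secreted in liver mainly by sinusoidal endothelial cells, acts on hepatocyte receptors with hemojuvelin as co-receptor. SMAD proteins then activate Hamp together with Id1 and Smad7, and the Smad7 product inhibits the same pathway in a feedback loop. Interleukin-6 acts on Hamp through STAT3. Independently of hepcidin, iron regulatory proteins bind stem loops in messenger RNAs, blocking translation where the loop lies ahead of the coding sequence and protecting the RNA where the loops lie behind it.

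The upstream sequences of the 2 hepcidin genes are shown because both regulatory arms act there and because the pair is so alike. Promoter entries (RefSeq, GRCm38.p6, 300 bases each) were found for 7 of the 10 genes, and not for Id1, Smad7 and Slc40a1. The windows below are chr7:30944089-30944168 for Hamp and chr7:30924238-30924317 for Hamp2, both on the minus strand and 80 bases long. Capitals mark the BMP-responsive six-base site, GGCGCC in Hamp with its counterpart in Hamp2, and the STAT motif TTCNNNGAA.
Hamp: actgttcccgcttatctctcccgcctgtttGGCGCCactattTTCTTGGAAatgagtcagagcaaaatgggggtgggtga
Hamp2: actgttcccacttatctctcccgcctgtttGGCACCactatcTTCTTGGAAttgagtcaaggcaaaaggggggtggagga
Positions are counted from 1 at the 5′ end of the six-base site, and the substitution from Hamp to Hamp2 is G4A. Both windows lie in no annotated exon of GENCODE M21. They fall inside the opposite-strand noncoding gene Gm44662, and the Hamp2 window also lies in an intron of a longer Hamp2 transcript. GGCGCC, searched on both strands, was present in 11.9% of all 32851 promoter entries, and of these genes also in 1 of the 2 entries of Tfrc. TTCNNNGAA was present in 8.30% of the entries and, of the 7 genes with an entry, in Hamp and Hamp2. A match of letters describes the sequence and says nothing of binding.

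Hamp and Hamp2 were 91.9% identical over 247 aligned promoter bases and 94.6% identical over 410 aligned transcript bases. Of the 361 stretches of 50 bases in the Hamp transcript, 60 occurred unchanged in Hamp2. How reads that match both genes were counted is not given in the sources used here, so the split between the 2 genes is uncertain. Exons of Bmp6 share 224 bases with the opposite-strand gene Txndc5, and the strand setting of the counting is not given. Txndc5, at 1209 to 2607 counts per library, was not called in any of the 4 comparisons between groups (log2 fold changes -0.18 to 0.14).

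The iron-responsive elements, the stem loops that iron regulatory proteins bind, are shown because they set apart the genes regulated ahead of the coding sequence from Tfrc. Capitals mark the bulged C and the six-base loop in each 29-base element of the GENCODE M21 transcripts (GRCm38).
Fth1, chr19:9982732-9982760, plus strand: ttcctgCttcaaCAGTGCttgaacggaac
Ftl1, chr7:45459779-45459807, minus strand: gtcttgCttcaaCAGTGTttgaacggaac
Slc40a1, chr1:45925465-45925493, minus strand: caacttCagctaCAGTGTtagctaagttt
Tfrc, chr16:32631219-32631247, plus strand: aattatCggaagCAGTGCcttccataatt
Each of the first 3 lies in an exon ahead of the coding sequence. The Tfrc element shown is 1 of 4 that the search found in its transcript, all in the exon behind the coding sequence. The Ftl1 element also lies in exon sequence of the opposite-strand model Gm10252, which had 0 to 3 counts in any library.

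Library totals were 6707013 to 13124881 counts. In 129S1/SvImJ they were 7607255 to 9184270 on chow and 6707013 to 13035534 on the high-fat diet. In C57BL/6J they were 10162138 to 12826048 on chow and 8294723 to 13124881 on the high-fat diet. The tissue label was borne out by the 10 hepatocyte markers, which summed to between 79164 and 114886 CPM in each library (CPM being counts scaled by TMM to a common library size). Levels of the noncoding 7SK RNA gene Rn7sk ranged from 2097 to 7258 CPM and divided every group, so each result was also computed among the libraries below and above its median. A C57BL/6J high-fat library (replicate 5) held 6.31 CPM of 4 fat cell markers together and a 129S1/SvImJ chow library (replicate 1) held 1.36 CPM, against at most 0.53 CPM elsewhere. Without those 2 libraries the call of Smad7 between strains on chow was lost (adjusted p = 0.104), and Ftl1 on the high-fat diet and Tfr2 on chow were called between strains (adjusted p = 0.0110 and 0.0439).

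Hepcidin messenger RNA was lower on the high-fat diet in both strains. In 129S1/SvImJ mice on the high-fat diet Hamp ranged from 137 to 315 CPM with a median of 181 CPM. The 5 chow mice of that strain had 797, 639.5, 578, 752 and 872 CPM. No high-fat mouse reached the lowest chow mouse, and the fitted fold change was 3.40-fold lower (log2 fold change -1.76 ± 0.38 SE, adjusted p = 0.00500). In C57BL/6J mice on the high-fat diet Hamp ranged from 70.8 to 423 CPM with a median of 108 CPM, and on chow from 269.8 to 591 CPM with a median of 386 CPM. These groups overlapped through 1 high-fat mouse, replicate 6, at 423 CPM, while the other 6 stayed at or below 169 CPM. The fitted fold change was 2.72-fold lower (log2 fold change -1.44 ± 0.35, adjusted p = 0.00837), and 3.88-fold lower without that mouse. Changes in RNA per cell and in the share of hepatocytes cannot be told apart in whole liver.

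In 129S1/SvImJ 4 of the 10 genes were called in the diet comparison, all of them lower, where 10.4% of all tested genes were called, 5.01% lower and 5.41% higher. In C57BL/6J 3 of the 10 were called, 2 lower and 1 higher, where 14.9% of all genes were called, 7.20% lower and 7.66% higher. As the 10 genes were chosen with earlier results of these data known, these counts are only a description. Among the libraries below the Rn7sk median the Hamp log2 fold change was -1.81 in 129S1/SvImJ (adjusted p = 0.117, 3 mice in each group) and -0.79 in C57BL/6J (adjusted p = 0.534, with replicate 6 among the 3 high-fat libraries). Above the median it was -1.68 (adjusted p = 0.0708) and -2.15 (adjusted p = 0.00638). All 4 values kept the direction, and 1 of the 4 passed the threshold at this group size.

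**Figure D1:**
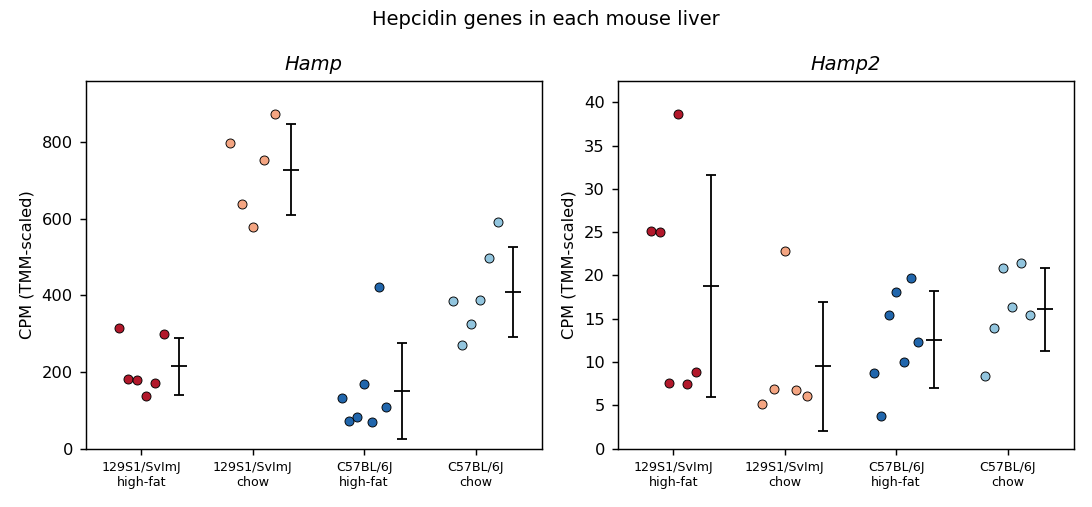
Level of Hamp (left) and Hamp2 (right) in each mouse liver, in TMM-scaled CPM on axes that start at 0, with the mean and SD of each group beside its points. For Hamp all 6 of the 129S1/SvImJ high-fat mice lie below the 5 chow mice, and 1 C57BL/6J high-fat mouse at 423 CPM lies within the range of its chow group.

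Hamp2, whose product has been reported in mice to lack the iron-regulating action of hepcidin, was called by diet in neither strain. It ranged from 7.44 to 38.6 CPM on the high-fat diet in 129S1/SvImJ, with a median of 16.96 CPM. The 5 chow mice had 5.19, 6.91, 22.8, 6.74 and 6.04 CPM. The groups overlapped, 3 of the high-fat mice lay above every chow mouse, and the difference was not called (log2 fold change 1.01 ± 0.49, adjusted p = 0.211). Without chow replicate 3, the mouse at 22.8 CPM, the difference was 1.61 and passed the threshold (adjusted p = 0.0470). In C57BL/6J Hamp2 had a median of 12.3 CPM on the high-fat diet and of 15.9 CPM on chow, with no call (log2 fold change -0.37 ± 0.43, adjusted p = 0.623). Per kilobase of exon Hamp averaged 523 CPM in 129S1/SvImJ high-fat mice and 1775 CPM in chow mice, against 32.2 and 16.4 CPM per kilobase for Hamp2.

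Bmp6, the ligand that drives hepcidin, fell on the high-fat diet in both strains and the strains' diet effects (129S1/SvImJ less C57BL/6J) differed by 0.04 on the log2 scale, with a 95% interval of -0.39 to 0.47 (interaction adjusted p = 0.963). In 129S1/SvImJ it ranged from 4.32 to 7.49 CPM on the high-fat diet (median 6.60 CPM), against 11.0, 10.3, 9.44, 9.55 and 13.4 CPM in the 5 chow mice. In C57BL/6J it ranged from 4.27 to 7.71 CPM on the high-fat diet (median 6.09 CPM) and from 8.69 to 13.7 CPM on chow (median 10.5 CPM). No high-fat mouse overlapped the chow mice of its strain. The log2 fold change was -0.78 ± 0.16 in 129S1/SvImJ (adjusted p = 0.00243) and -0.82 ± 0.15 in C57BL/6J (adjusted p = 0.000437). Counts behind these levels were low, 42 to 142 per library. It was lower at both Rn7sk levels in both strains (log2 fold changes -0.61 to -0.98), and called in 1 of these 4 smaller fits. The groups did not overlap for 4 of the 10 genes in 129S1/SvImJ, against 7.73% of all genes, and for Bmp6 alone in C57BL/6J, against 3.89% of all genes.

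Id1, a gene of a DNA-binding inhibitor that BMP signals switch on, fell in 129S1/SvImJ. It ranged from 0.935 to 2.57 CPM on the high-fat diet (median 1.69 CPM), against 10.1, 4.29, 7.42, 2.81 and 4.20 CPM in the 5 chow mice. The groups did not overlap and the log2 fold change was -1.68 ± 0.40 (adjusted p = 0.00838), from as few as 6 counts in a library. In C57BL/6J the range was 2.34 to 7.79 CPM on the high-fat diet and 3.81 to 12.0 CPM on chow. Those ranges overlapped widely and the difference was not called (log2 fold change -0.50 ± 0.33, adjusted p = 0.325). It was 0.15 above the Rn7sk median and -0.92 below it, neither called.

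Smad7, the inhibitory SMAD, also fell in 129S1/SvImJ. It ranged from 14.2 to 24.5 CPM on the high-fat diet (median 21.8 CPM), against 56.0, 44.5, 49.7, 32.9 and 43.2 CPM in the 5 chow mice. The groups did not overlap, and the log2 fold change was -1.13 ± 0.20 (adjusted p = 0.000907). In C57BL/6J Smad7 ranged from 18.4 to 42.1 CPM on the high-fat diet and from 20.3 to 39.6 CPM on chow, and was not called (log2 fold change -0.32 ± 0.19, adjusted p = 0.280). The highest of these high-fat mice was again replicate 6, and without it the difference was called (log2 fold change -0.49, adjusted p = 0.0334).

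**Figure D2:**
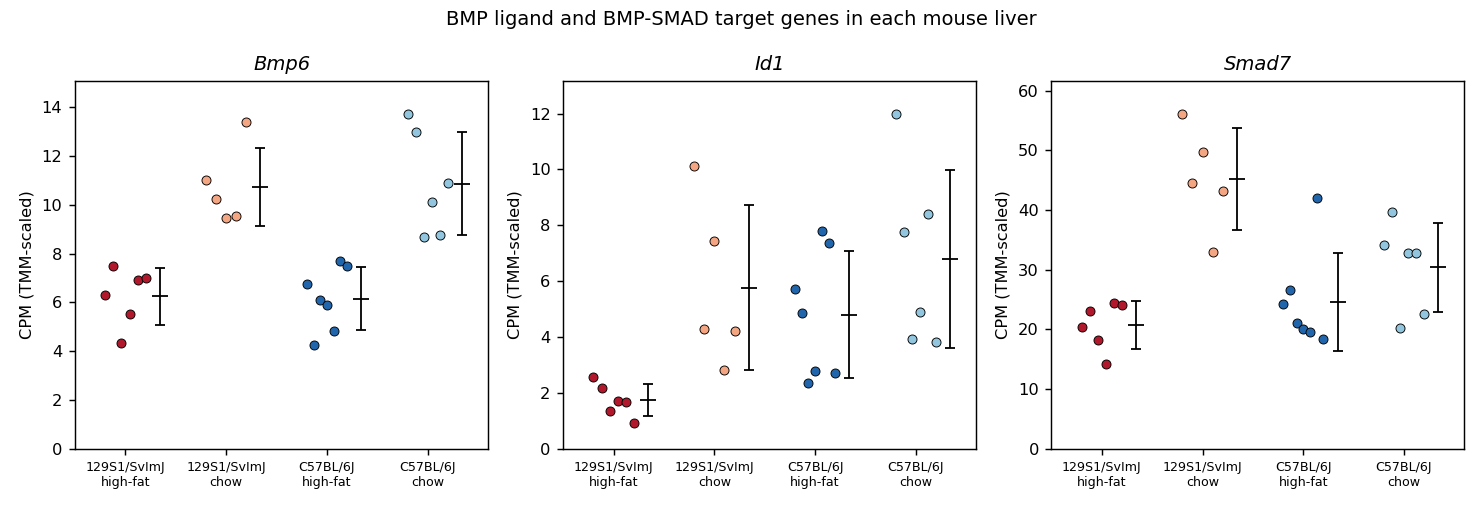
Level of Bmp6, Id1 and Smad7 in each mouse liver, in TMM-scaled CPM on axes that start at 0, with the mean and SD of each group. Bmp6 separates high-fat from chow mice in both strains, while Id1 and Smad7 separate them in 129S1/SvImJ and overlap between diets in C57BL/6J.

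The difference of the diet effect between strains was tested as the interaction. None of the 10 genes passed, where 0.296% of all genes did. The interaction was -0.81 ± 0.28 for Smad7 (unadjusted p = 0.00779, adjusted p = 0.170, edgeR quasi-likelihood test) and -1.18 ± 0.52 for Id1 (unadjusted p = 0.0328, adjusted p = 0.303). It was 1.38 ± 0.65 for Hamp2 (unadjusted p = 0.0466, adjusted p = 0.342, edgeR quasi-likelihood test) and -0.32 ± 0.52 for Hamp (adjusted p = 0.834). The calls of Id1 and Smad7 in 129S1/SvImJ were thus not shown to differ from the values in C57BL/6J. Smad7, Id1 and Hamp2 were the 3 of the 10 at an unadjusted p under 0.05, and DESeq2 and limma called none of the 10.

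Of 8 BMP-SMAD target genes, the 4 above among them, 5 were lower on the high-fat diet in 129S1/SvImJ and none higher, with a median log2 fold change of -0.98 against 0.00 over all genes tested. The other called genes were Atoh8, a transcription factor gene induced by BMP6, at 7.51 ± 1.90 CPM on the high-fat diet and 18.1 ± 4.72 CPM on chow (SD, n = 6 and 5, log2 fold change -1.27, adjusted p = 0.00170), and Id2, which is named here although it lay outside the 4 smallest p-values of the list (log2 fold change -0.84). In C57BL/6J 1 of the 8, Hamp, was lower and none higher, with a median of -0.39 against 0.01 over all genes. All 8 had fitted values below 0 there, as did 7 of the 8 in 129S1/SvImJ. The diet comparisons called 5.01% of all genes lower in 129S1/SvImJ and 7.20% in C57BL/6J.

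Of 15 tested BMP-SMAD ligands, receptors and mediators, 2 were lower on the high-fat diet in 129S1/SvImJ and 3 in C57BL/6J, and none was higher (median log2 fold change -0.05 and -0.12). Besides Bmp6 they were Smad1, the signal-carrying SMAD, in 129S1/SvImJ (log2 fold change -0.30), and the type 2 receptor gene Acvr2a (-0.25) and the shared partner Smad4 (-0.22) in C57BL/6J. The Smad1 call was lost when any of 10 libraries was left out, with an adjusted p of up to 0.164. Of 8 tested antagonists and hepcidin suppressors, Bambi, a decoy receptor gene, was lower in 129S1/SvImJ (log2 fold change -0.61), and Fkbp1a, whose product holds type 1 BMP receptors inactive, was higher in C57BL/6J (0.35). The Bambi call was lost when any of 12 libraries was left out, and the Fkbp1a call when any of 7 was. Over all genes 10.4% were called by diet in 129S1/SvImJ and 14.9% in C57BL/6J.

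Markers of sinusoidal endothelial cells, hepatocytes, Kupffer cells and stellate cells were summed beside these values. The 12 sinusoidal endothelial markers summed to 762 to 885 CPM in high-fat mice and 645 to 894 CPM in chow mice of 129S1/SvImJ, where none was called by diet (1 at an unadjusted p under 0.05, and 0 called by DESeq2 and limma). They summed to 648 to 784 CPM and 632 to 829.8 CPM in C57BL/6J, where 1 of the 12, Ehd3, was lower on the high-fat diet. The hepatocyte markers summed to 80506 to 101936 CPM in high-fat mice and 95298 to 112253 CPM in chow mice of 129S1/SvImJ, with 1 of 10 lower. In C57BL/6J they summed to 79164 to 97438 CPM and 107430 to 114886 CPM, with 5 of 10 lower and none higher. The 12 Kupffer cell markers summed to 146 to 335 CPM in high-fat mice and 94.1 to 261 CPM in chow mice of 129S1/SvImJ, with C1qa called higher and a median log2 fold change of 0.70. In C57BL/6J they summed to 268 to 646 CPM and 285 to 473 CPM, with none called by edgeR (0 at an unadjusted p under 0.05, and 0 called by DESeq2 and limma) and a median of 0.17. The 10 stellate cell markers summed to 578 to 660.2 CPM in high-fat mice and 491 to 699 CPM in chow mice of 129S1/SvImJ, with Lrat called higher. In C57BL/6J they summed to 475 to 1127 CPM and 479.9 to 682 CPM, with Col1a1 and Col3a1 called higher. Of all genes 5.01% were called lower and 5.41% higher by diet in 129S1/SvImJ, and 7.20% lower and 7.66% higher in C57BL/6J. The part of these markers in the differences by diet was not tested.

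Of 17 tested genes of the interleukin-6 and STAT3 arm none was called by diet in 129S1/SvImJ with edgeR (median log2 fold change 0.03). At an unadjusted p under 0.05 there were 4, and DESeq2 called 2 and limma 0. In C57BL/6J 4 of the 17 were lower, where 7.20% of all genes were, and none was higher (median -0.17). These were the 3 fibrinogen chain genes Fga (log2 fold change -0.63), Fgb (-0.58) and Fgg (-0.54), and Socs3, the feedback inhibitor of STAT3 signals (-1.20), whose call ended without C57BL/6J chow replicate 1 or replicate 4. Saa1, an acute-phase gene, ranged in 129S1/SvImJ from 43.0 to 166 CPM in high-fat mice, above the 11.5 to 29.1 CPM of the chow mice, without a call in the fit of all 24 libraries (log2 fold change 2.00 ± 0.88, adjusted p = 0.164). Saa2 (5.93 to 80.9 against 0.989 to 3.78 CPM) and Lcn2 (4.05 to 31.4 against 1.05 to 2.10 CPM) were also higher there without overlap. Of the 17 genes 12 had fitted values above 0 in 129S1/SvImJ and 5 below. C57BL/6J chow replicate 3 had 485 CPM of Saa1 and 351 CPM of Saa2. Without it both differences in 129S1/SvImJ were called (log2 fold changes 2.00 and 3.37, adjusted p = 0.0156 and 0.0169). In C57BL/6J Saa1 and Saa2 were then at 1.30 and 1.98 by diet, neither called (adjusted p = 0.0770 and 0.0665). Saa1 ranged there from 20.5 to 97.1 CPM on the high-fat diet, and from 13.2 to 59.5 CPM in the other chow mice. Hamp in chow replicate 3 was 326 CPM, within the range of its group.

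Transferrin receptor, ferritin and ferroportin genes had smaller diet differences than Hamp. Tfrc, the receptor for transferrin-bound iron whose RNA iron regulatory proteins protect when iron is scarce, ranged from 20.95 to 31.2 CPM in high-fat mice of 129S1/SvImJ (median 26.9 CPM). The 5 chow mice had 14.0, 19.99, 22.5, 21.4 and 18.5 CPM. The lowest high-fat mouse lay within the chow range and the other 5 above it, and the difference missed the threshold (log2 fold change 0.46 ± 0.20, unadjusted p = 0.0271, adjusted p = 0.142). In the fit of these 2 groups alone it passed (log2 fold change 0.46, adjusted p = 0.0196). In C57BL/6J Tfrc ranged from 22.5 to 45.7 CPM on the high-fat diet and from 18.7 to 40.7 CPM on chow, with no call (log2 fold change 0.25 ± 0.17, adjusted p = 0.368).

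Tfr2, the second transferrin receptor, which hepatocytes use in sensing iron for hepcidin, averaged 521 ± 29.3 CPM on the high-fat diet and 521 ± 28.4 CPM on chow in 129S1/SvImJ (SD, n = 6 and 5). Its log2 fold change was 0.00 ± 0.08, with a 95% interval of -0.15 to 0.15. In C57BL/6J the values were 425 ± 51.9 CPM and 453 ± 24.9 CPM (SD, n = 7 and 6, log2 fold change -0.09 ± 0.07, adjusted p = 0.412). The 95% interval in C57BL/6J was -0.23 to 0.05.

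Fth1, the ferritin heavy chain that stores iron and oxidises it, was the 1 member called higher on the high-fat diet, and only in C57BL/6J. It ranged from 704 to 1352 CPM there on the high-fat diet (median 975 CPM) and from 675 to 825 CPM on chow (median 729 CPM). The lowest high-fat mouse, replicate 6, lay inside the chow range, and the log2 fold change was 0.42 ± 0.12 (adjusted p = 0.0152). It was lost in the fit with the replicate block (adjusted p = 0.0537). In 129S1/SvImJ Fth1 was not called (log2 fold change 0.08 ± 0.13). The light chain gene Ftl1 was called by diet in neither strain (log2 fold changes 0.03 ± 0.10 and 0.18 ± 0.10). Pseudogenes of the ferritins took at most 17 counts in a library.

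Slc40a1, which encodes ferroportin, the target of hepcidin, was called by diet in neither strain. It ranged from 160.2 to 274 CPM on the high-fat diet in 129S1/SvImJ, where 5 of the 6 mice were at 247 CPM or above, and from 241 to 274 CPM on chow. In C57BL/6J it ranged from 180.3 to 242 CPM on the high-fat diet and from 163 to 229.9 CPM on chow. The log2 fold changes were -0.06 ± 0.11 and 0.13 ± 0.10, with 95% intervals of -0.28 to 0.16 and -0.07 to 0.33. The RNA level does not measure the protein that hepcidin removes.

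**Figure D3:**
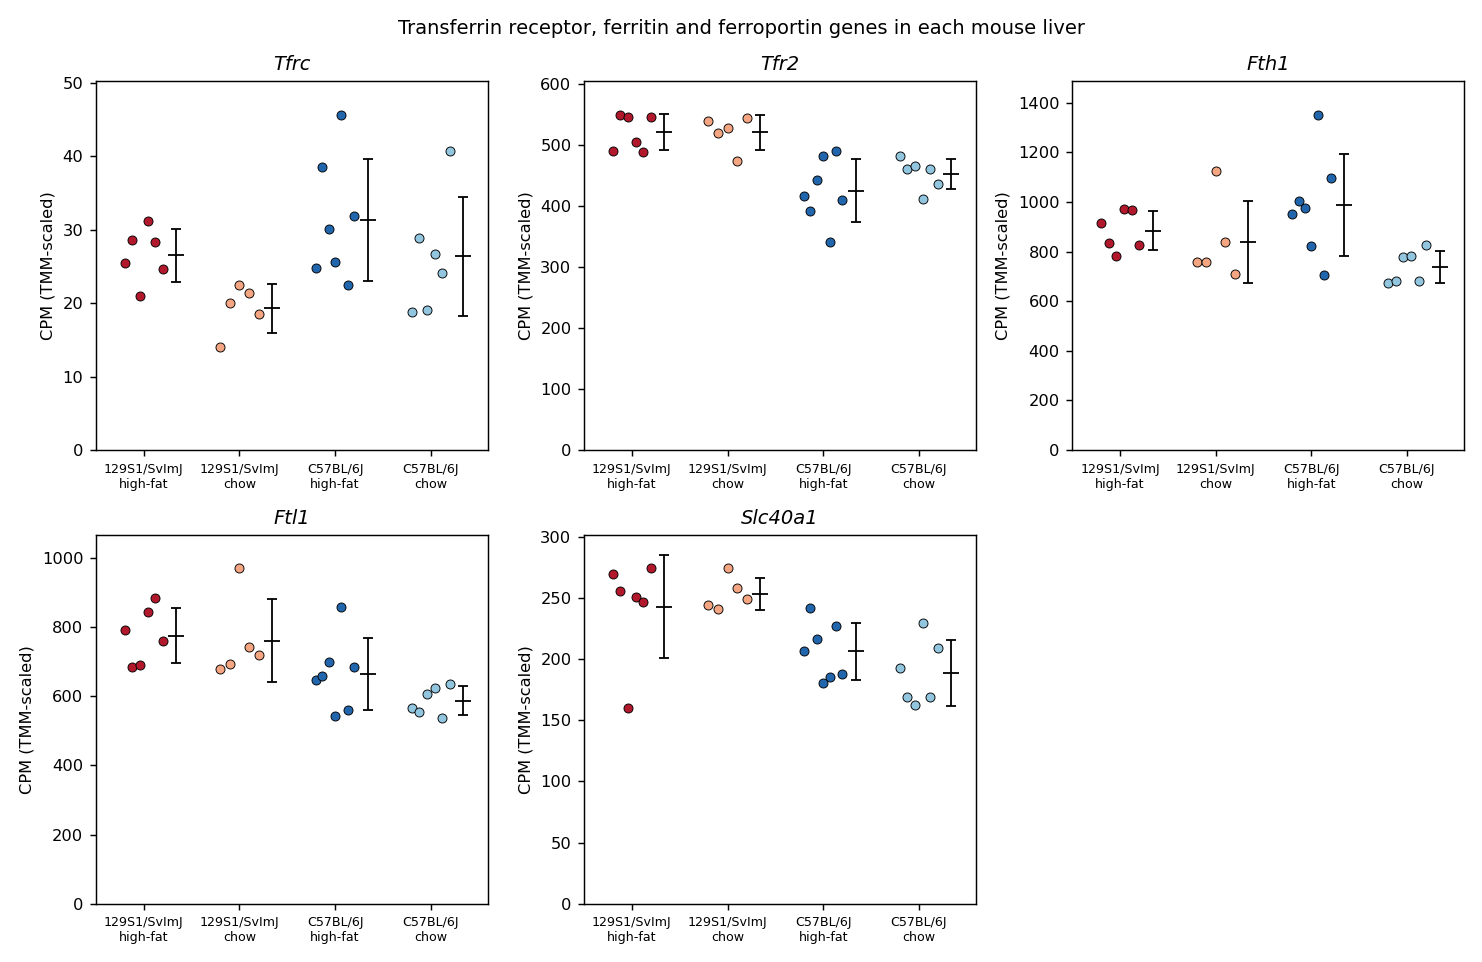
Level of Tfrc, Tfr2, Fth1, Ftl1 and Slc40a1 in each mouse liver, in TMM-scaled CPM on axes that start at 0, with the mean and SD of each group. High-fat and chow mice of a strain overlap for all 5 genes, and the 129S1/SvImJ mice on chow lie above the C57BL/6J mice on chow without overlap for Ftl1 and Slc40a1.

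Around these genes, 2 of 14 tested genes of iron uptake and transport were higher on the high-fat diet in 129S1/SvImJ and 1 in C57BL/6J, with none lower (median log2 fold change 0.06 and 0.01). Steap3, a ferrireductase gene of the transferrin cycle, was higher in both strains. It averaged 36.7 ± 3.76 CPM on the high-fat diet and 26.9 ± 2.39 CPM on chow in 129S1/SvImJ (log2 fold change 0.45, adjusted p = 0.0182), and 25.6 ± 3.91 and 19.7 ± 4.03 CPM in C57BL/6J (0.37, adjusted p = 0.0258). The first call was lost without 129S1/SvImJ chow replicate 1, and the second without C57BL/6J chow replicate 5 or 6 or high-fat replicate 6. Steap4, another metalloreductase gene, was higher in 129S1/SvImJ (log2 fold change 0.67), a call that ended without chow replicate 1 or replicate 2. Of the 5 storage genes Fth1 alone was called by diet. The share of all genes called higher by diet was 5.41% in 129S1/SvImJ and 7.66% in C57BL/6J.

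Of 20 tested genes of mitochondrial iron and iron-sulphur clusters, 2 were higher on the high-fat diet in 129S1/SvImJ with none lower (median log2 fold change 0.13). In C57BL/6J 5 were higher and 1 lower (median 0.07). The diet comparisons called 10.4% of all genes in 129S1/SvImJ and 14.9% in C57BL/6J. Slc25a37, which encodes the mitochondrial iron importer mitoferrin, rose in both strains (log2 fold change 0.49 ± 0.10, adjusted p = 0.00229, and 0.36 ± 0.09, adjusted p = 0.00900). Glrx5, a cluster assembly gene, rose in C57BL/6J (0.45). Iscu and Cisd1 were also called there (0.24 and 0.21) and were lost when any of 9 and of 7 libraries was left out, and Nfs1 in 129S1/SvImJ (0.23) when any of 18 was. Of 10 tested genes of iron regulatory proteins and oxygen sensing, Aco1, which encodes iron regulatory protein 1, and Arnt, the shared partner of the hypoxia factors, were higher in 129S1/SvImJ (0.24 and 0.37), and the prolyl hydroxylase gene Egln1 in C57BL/6J (0.37). The Aco1 call ended without 129S1/SvImJ chow replicate 1. Of 20 haem genes 1 was called in each strain, Ppox lower in 129S1/SvImJ (-0.38, lost without chow replicate 1, 2 or 5) and Flvcr1, a haem exporter gene, higher in C57BL/6J (0.40, lost when any of 6 libraries was left out).

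The 7 red blood cell markers summed to 259.9 to 382 CPM in high-fat mice and 265 to 346 CPM in chow mice of 129S1/SvImJ. In C57BL/6J they summed to 176 to 284 CPM and 203 to 277 CPM. None of the 5 tested was called by diet in either strain with edgeR, DESeq2 or limma, and at an unadjusted p under 0.05 there were 0 in 129S1/SvImJ and 1 in C57BL/6J.

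Between strains on chow 3 of the 10 genes were called, all of them higher in 129S1/SvImJ, where 25.0% of all genes were called and 12.6% were called higher. Slc40a1 averaged 253 ± 13.5 CPM in 129S1/SvImJ and 189 ± 26.8 CPM in C57BL/6J (SD, n = 5 and 6), without overlap (log2 fold change 0.42 ± 0.11, adjusted p = 0.00530). Ftl1 averaged 761 ± 119.5 and 587 ± 40.7 CPM, also without overlap (0.37 ± 0.10, adjusted p = 0.00944). Its call ended without 129S1/SvImJ chow replicate 3, the highest mouse of its group (0.27, adjusted p = 0.0504). The groups did not overlap for these 2 of the 10 genes, against 15.1% of all genes. Smad7 averaged 45.3 ± 8.54 and 30.4 ± 7.41 CPM (0.57 ± 0.20, adjusted p = 0.0389). That call was lost without any of 7 libraries, namely 129S1/SvImJ chow replicate 1, 2, 3 or 5 or C57BL/6J chow replicate 3, 5 or 6, with an adjusted p of up to 0.109.

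Hamp on chow averaged 728 ± 118.8 CPM in 129S1/SvImJ and 409 ± 117 CPM in C57BL/6J. One C57BL/6J mouse, at 591 CPM, reached into the 129S1/SvImJ range, and the difference was not called in the fit of all 24 libraries (log2 fold change 0.83 ± 0.38, adjusted p = 0.119). It was called when C57BL/6J high-fat replicate 6, a mouse of neither group, was left out (0.83, adjusted p = 0.0192), and in the fit of the 2 groups alone (adjusted p = 0.00616).

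Between strains on the high-fat diet 2 of the 10 genes were called, where 37.0% of all genes were called. Id1 was lower in 129S1/SvImJ, at 1.73 ± 0.58 CPM against 4.80 ± 2.27 CPM in C57BL/6J (SD, n = 6 and 7, log2 fold change -1.42 ± 0.37, adjusted p = 0.00439), and its ranges met at 2.34 to 2.57 CPM. Tfr2 was higher in 129S1/SvImJ, at 521 ± 29.3 CPM against 425 ± 51.9 CPM (0.29 ± 0.07, adjusted p = 0.00161). Of all genes 19.1% were called lower and 17.9% higher. Hamp was not called (0.51 ± 0.35, adjusted p = 0.271), and without C57BL/6J high-fat replicate 6 it was higher in 129S1/SvImJ (1.02, adjusted p = 0.00266). Slc40a1 and Ftl1 missed the threshold here (0.23 and 0.22, adjusted p = 0.0716 and 0.0703). Slc40a1 passed it without 129S1/SvImJ high-fat replicate 3 or C57BL/6J high-fat replicate 2, and Ftl1 without C57BL/6J high-fat replicate 5 or 129S1/SvImJ chow replicate 3.

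**Figure D4:**
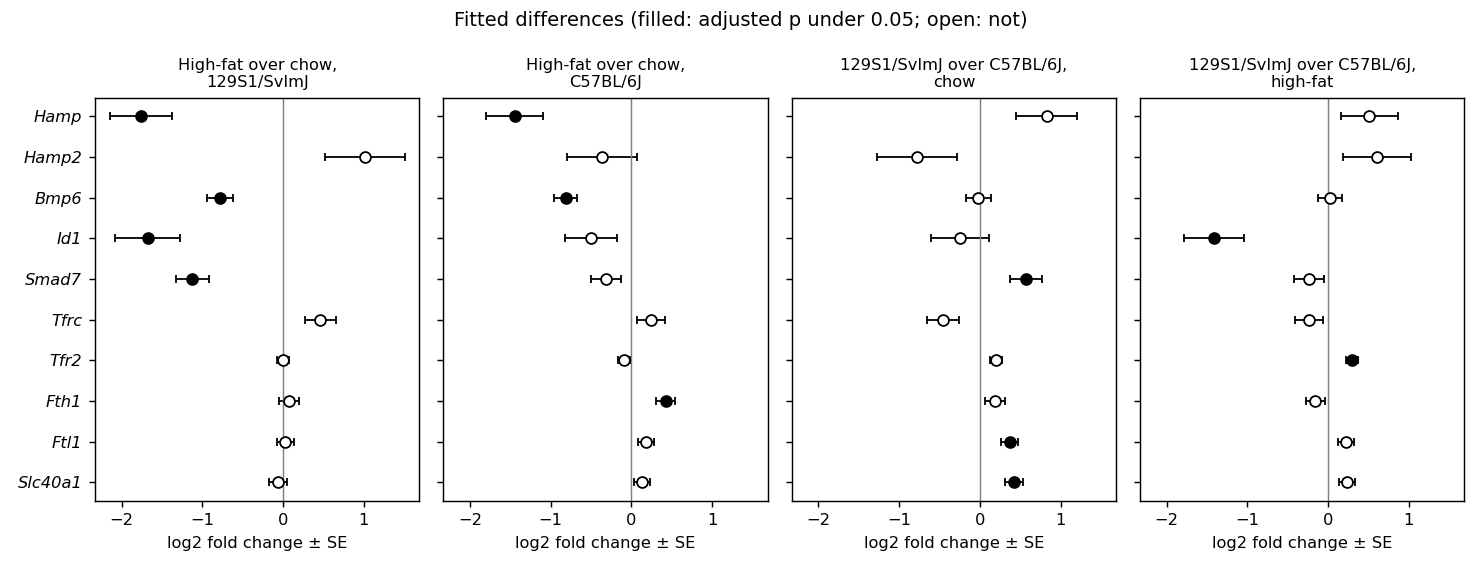
Fitted log2 fold changes of the 10 genes, with the standard error as bars, for the high-fat diet over chow in each strain and for 129S1/SvImJ over C57BL/6J on each diet. Filled points passed an adjusted p of 0.05: Hamp and Bmp6 by diet in both strains, Id1 and Smad7 by diet in 129S1/SvImJ, Fth1 by diet in C57BL/6J, 3 genes between strains on chow and 2 on the high-fat diet.

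Of the 15 ligands, receptors and mediators of the BMP-SMAD arm 2 were higher and 3 lower in 129S1/SvImJ on chow, and 4 were higher and 3 lower on the high-fat diet. Of all genes 25.0% were called in either direction on chow and 37.0% on the high-fat diet. The median log2 fold changes of the 15 were -0.01 and 0.04. Hfe, the gene of the haemochromatosis protein, averaged 26.3 ± 2.63 CPM in 129S1/SvImJ and 37.3 ± 2.97 CPM in C57BL/6J on chow (log2 fold change -0.51), and 25.4 ± 2.03 and 37.2 ± 5.31 CPM on the high-fat diet (-0.55). Hfe2, which encodes hemojuvelin, was also lower in 129S1/SvImJ (-0.51 and -0.43). Tmprss6, whose protease cleaves hemojuvelin and so limits hepcidin, was higher (0.36 and 0.33), and so was Furin, which cuts the hepcidin precursor (0.43 and 0.17, the second lost when any of 6 libraries was left out). Atoh8 was lower in 129S1/SvImJ on the high-fat diet with Id1 (-0.79), the 2 called of the 8 BMP-SMAD targets there. Fgl1, a suppressor gene for hepcidin, was lower in 129S1/SvImJ on chow, at 45.1 ± 16.3 CPM against 156 ± 119.3 CPM (-1.79).

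Of 14 tested iron uptake and transport genes 4 were higher in 129S1/SvImJ on chow and 7 on the high-fat diet, and none was lower (median log2 fold change 0.18 and 0.24, against 0.01 and 0.00 over all genes). Of all genes, 12.6% were higher and 12.5% lower on chow, and 17.9% higher and 19.1% lower on the high-fat diet. Of the 10 hepatocyte markers, Trf and Ttr were higher on chow (median log2 fold change -0.01), and Cps1, Trf and Serpina1a were higher on the high-fat diet (median 0.24), with none lower on either diet. Trf is in both lists, and the part of the hepatocyte markers in the strain differences was not tested. Trf, the transferrin gene, averaged 1290 ± 143 CPM in 129S1/SvImJ and 1012.5 ± 69.0 CPM in C57BL/6J on chow (0.35), and 1254 ± 65.9 and 905 ± 65.2 CPM on the high-fat diet (0.47). Steap3 was higher on both diets (0.45 and 0.52). Of 20 haem genes 6 were higher and 1 lower on chow, and 8 higher and 4 lower on the high-fat diet. Alad, the second enzyme of haem synthesis, averaged 225 ± 30.6 CPM in 129S1/SvImJ and 95.3 ± 9.41 CPM in C57BL/6J on chow (1.24 ± 0.08), and 199.9 ± 10.1 and 99.4 ± 9.02 CPM on the high-fat diet (1.01 ± 0.08). Of the storage genes Ncoa4, the ferritin cargo receptor gene, was lower on both diets (-0.25 and -0.20), and on the high-fat diet its call ended without 129S1/SvImJ replicate 4 or C57BL/6J replicate 4. Fdx1, a ferredoxin gene, was higher (0.57 and 0.88) and Cisd2 lower (-0.54 and -0.41) among the mitochondrial genes. Fbxl5, which marks iron regulatory protein 2 for breakdown, was higher (0.33 and 0.35) and Hif1a lower (-0.25 and -0.23).

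Markers of Kupffer cells, the liver macrophages that recycle iron and also express ferroportin, were lower in 129S1/SvImJ. The 12 markers summed to 94.1 to 261 CPM in 129S1/SvImJ and 285 to 473 CPM in C57BL/6J on chow, with 11 of 12 called lower. On the high-fat diet they summed to 146 to 335 CPM and 268 to 646 CPM, with 8 of 12 called lower and none higher. Clec4f, a defining marker, ranged from 21.8 to 64.1 CPM in 129S1/SvImJ and from 64.2 to 105.8 CPM in C57BL/6J on chow. Slc40a1 on chow was higher in the strain with the lower Kupffer marker sum. Of 12 sinusoidal endothelial markers 2 were higher and 5 lower on chow, and 3 higher and 4 lower on the high-fat diet. Of all genes 12.5% were called lower and 12.6% higher on chow, and 19.1% lower and 17.9% higher on the high-fat diet. The part of these markers in the strain differences was not tested.

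Ratios within a library do not depend on its scaling. The log2 ratio of Hamp to Id1 counts averaged 6.91 ± 0.70 on the high-fat diet and 7.09 ± 0.80 on chow in 129S1/SvImJ (SD, n = 6 and 5), a difference of -0.19 (exact two-sided permutation test, p = 0.690, adjusted p = 0.789 over the 8 ratio tests). In C57BL/6J it averaged 4.81 ± 1.02 and 5.98 ± 0.85 (SD, n = 7 and 6), a difference of -1.17 (exact p = 0.0495, adjusted p = 0.0779). Between strains on the high-fat diet it was higher in 129S1/SvImJ by 2.09 (exact p = 0.00175, adjusted p = 0.00866), and every 129S1/SvImJ mouse lay above every C57BL/6J mouse, at 6.30 or more against 5.91 or less. On chow the difference was 1.11 (exact p = 0.0584, adjusted p = 0.0779). Whether the diet effect on this ratio differed between strains was not tested.

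The log2 ratio of ferritin (Fth1 plus Ftl1) to Tfrc counts fell in 129S1/SvImJ, to 5.97 ± 0.15 on the high-fat diet, against 6.37 ± 0.22 on chow (SD, n = 6 and 5). Every high-fat mouse lay below every chow mouse, and the difference was -0.40 (exact two-sided permutation test, p = 0.00216, the smallest this design allows, adjusted p = 0.00866). In C57BL/6J it averaged 5.74 ± 0.18 and 5.70 ± 0.38 (difference 0.04, exact p = 0.789). On chow it was higher in 129S1/SvImJ than in C57BL/6J by 0.68 (exact p = 0.0108, adjusted p = 0.0289), and on the high-fat diet by 0.23 (exact p = 0.0315, adjusted p = 0.0629). The 3 of the 8 differences that passed had the same sign at both Rn7sk levels. With 2 to 4 mice a group, the exact tests there could not pass the adjusted threshold whatever the values.

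**Figure D5:**
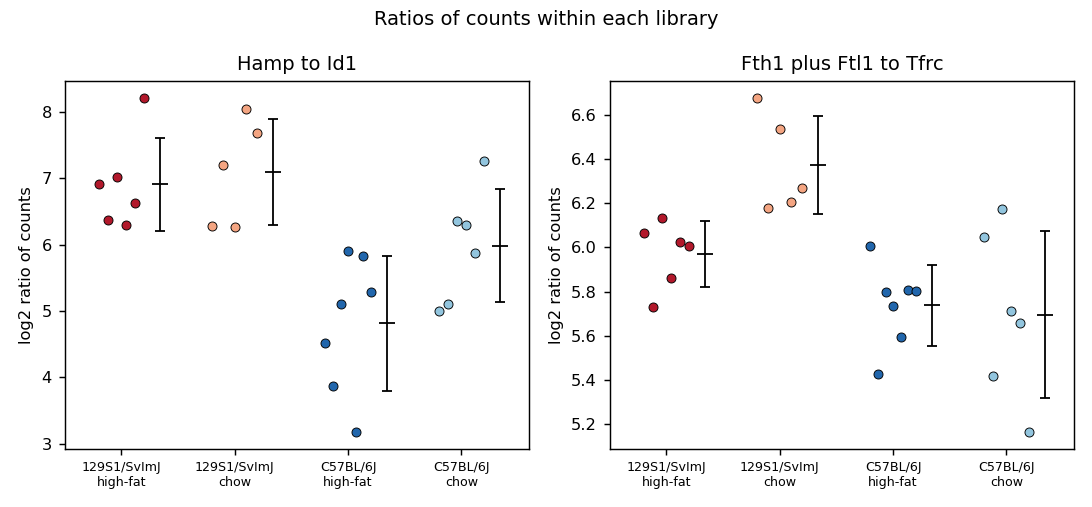
Log2 ratio of counts within each library, Hamp to Id1 on the left and Fth1 plus Ftl1 to Tfrc on the right, for each mouse, with the mean and SD of each group. The left panel separates the 129S1/SvImJ from the C57BL/6J high-fat mice, and the right panel separates high-fat from chow mice in 129S1/SvImJ.

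Id1 and Smad7 were compared across mice within groups. Over deviations from the group means of log2(CPM + 0.5) in the 24 mice, Pearson's r was 0.59 (permutation p = 0.00565, adjusted p = 0.0226 over 4 pairs) and Spearman's rho 0.58 (permutation p = 0.00633, adjusted p = 0.0253). Without the 2 mice farthest from the median of Id1, r was 0.55 and no longer passed (permutation test, adjusted p = 0.0704). The call was also lost without 129S1/SvImJ chow replicate 1 or 4 or C57BL/6J high-fat replicate 6 (r = 0.55, 0.54 and 0.54). Within the 3 groups of 6 or more mice, r was 0.77 in C57BL/6J on chow, 0.55 in C57BL/6J on the high-fat diet and -0.11 in 129S1/SvImJ on the high-fat diet. For Hamp and Id1 r was 0.06 and rho 0.02 (permutation p = 0.818). It was at r = 0.40 with Smad7 (rho = 0.18) and r = 0.41 with Bmp6 (rho = 0.40), with adjusted p = 0.152 for both Pearson values from the permutation test. The Smad7 value was -0.02 without C57BL/6J high-fat replicate 6 or without the 2 mice farthest from the median of Hamp.

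As a description over the same 24 libraries, the genes of mean level of at least 1 CPM whose deviations were most like those of Hamp were Serpina11 (r = 0.86), Rilp (0.81), Ccnl2 (0.79) and Spen (0.79). For Bmp6 they were Baz2a (0.71), Gpr155 (0.70), Chn2 (0.69) and Ttc38 (0.68). For Tfrc they included Esd (0.78), Pgm2 (0.76) and Ywhah (0.75), and for Slc40a1 Bank1 (0.73), Gm38014 (0.73), D930016D06Rik (0.72) and Slfn2 (0.71). Among the 10 genes themselves, Fth1 and Ftl1 were the closest pair (r = 0.93), and Tfr2 ran against Fth1 (r = -0.75), Ftl1 (-0.70) and Tfrc (-0.68). These points share their libraries, depth and scaling.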

How the data were processed

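Liver RNA of 24 mice was sequenced, 1 library each, from total RNA depleted of ribosomal RNA with a strand-keeping kit, per the labels' protocols. The authors deposited raw counts per gene, identical in the matrix and in the 24 per-library files, and a matrix of variance-stabilized values on a log2-like scale, in which 0 counts read 4.243. Per the submitters' processing notes the tools included STAR 2.5.4b, Bowtie2 2.2.3 and Trimmomatic 0.36 with DESeq2 1.26.0, on mm10, with no role stated. Annotation release, strand setting and handling of multiply mapped reads: not given in the sources used here.

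Of 53677 identifiers 53582 matched GENCODE M21, which gave symbols. Totals were 6707013 to 13124881 counts, so genes such as Id1 and Bmp6 rest on few counts. In R 4.3.3 with edgeR 4.0.16, filterByExpr kept 14533 genes, library sizes were scaled by TMM, and the 24 libraries entered a single robust quasi-likelihood fit of group means. The comparisons were diet in each strain, strain on each diet and the interaction, with calls at 0.05 after Benjamini-Hochberg adjustment across the tested genes. Each adjusted p of a gene is from edgeR's two-sided quasi-likelihood test unless another tool is named. Standard errors are the log2 fold change divided by the square root of F, with a prior count of 0.125, and the intervals at 95% are normal approximations from them. CPM are TMM-scaled. The fit was tested on simulated data. Ratios (0.5 counts added) had exact permutation tests, adjusted over 8, and correlations 100000 permutations within groups, adjusted over 4, computed with Python 3.11.15, numpy 2.4.6, pandas 2.3.3 and scipy 1.17.1.

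The 10 genes, the 9 pathway lists and the 8 marker lists were chosen with earlier results of these data known. Named were all 10 genes, up to 4 called genes of smallest p per pathway list and comparison, the 4 genes most like each of 4 members, and the first 3 markers of a list. Some genes that this rule names are not reported here. Values of Id2 and the diet values of Saa1, Saa2 and Lcn2 were chosen after they were seen. Alternatives were DESeq2 1.42.0, its size factors in edgeR, limma 3.58.1 on the variance-stabilized values, no filter, only the groups compared, the replicate block, Rn7sk as covariate or level, and fits without single or fat-marked libraries. No pair of libraries in a group matched within sampling noise (61 pairs, chi-square per degree of freedom 5.56 to 78.8).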

Additional observations from a re-analysis of the deposited data

Results flagged for a closer look

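A lone mouse stood apart from its group in 4 of 48 groups of values tested on the log2 scale, where chance gives about 1 in 20. The 48 groups share mice and are not independent. Hamp2 was 22.8 CPM in 129S1/SvImJ chow replicate 3, against 5.19 to 6.91 CPM in the other 4 mice. The same mouse had 969.6 CPM of Ftl1, against 678 to 743 CPM in the others. Slc40a1 was 160.2 CPM in 129S1/SvImJ high-fat replicate 3, against 247 to 274 CPM in the other 5 mice. The log2 ratio of Hamp to Id1 was 8.213 in 129S1/SvImJ high-fat replicate 6, against 6.30 to 7.02 in the others, from 6 counts of Id1 in that mouse. Hamp in C57BL/6J high-fat replicate 6, at 423 CPM against at most 169 CPM in the others, was not among the 4 on the log2 scale.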

How the results depend on the processing

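Over the 10 genes in 5 comparisons, 1685 of the alternative values kept direction and side of the threshold, 29 lost a call, 26 gained one and none changed a called sign. The cause of each change below was not tested. The fits by Rn7sk level also held fewer mice. Among libraries below the Rn7sk median (a split chosen after seeing the data) the calls among the 10 genes were 2 for diet in 129S1/SvImJ, 0 for diet in C57BL/6J, 1 for strain on chow and 1 for strain on the high-fat diet, and above it 0 for diet in 129S1/SvImJ and 1 for strain on chow. Of the 14270 genes tested below the median 642, 155, 1941 and 2799 were called, in the same order. Above it 236 and 1501 of 15017 were called. The planned split at the largest gap gave 0 for strain on chow in its lower level, where 3127 of 15080 genes were called. Its upper level, with 2 libraries of 1 group, could not be fitted. Strain on chow gave 5 with only the 2 groups, where 3312 of 13638 genes were called. Without single libraries it gave 1 to 5, where 3153 to 3814 genes were called. The ratio of ferritin to Tfrc between strains on chow was 0.6791 (adjusted p = 0.0714, exact permutation test) at the lower level of the largest gap. Below and above the Rn7sk median the Hamp to Id1 difference between strains on the high-fat diet was 1.997 and 2.095. The ferritin to Tfrc difference was -0.418 and -0.3869 by diet in 129S1/SvImJ, and 0.6678 and 0.6867 between strains on chow. At these group sizes the exact tests could not pass the adjusted threshold. Between strains on the high-fat diet the ferritin ratio was 0.1796 to 0.2795 without single libraries. The correlation of Id1 and Smad7 was 0.5333 within Rn7sk levels, 0.545 without the 2 farthest mice and 0.5389 to 0.6923 without single libraries. Saa1 between strains on chow reversed to 0.09478 below the Rn7sk median.

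Whether replicate numbers pair mice of different groups is not given. Of 33 same-numbered pairs 14 correlated above 0.1 (range -0.22 to 0.314). Their median was 0.05, against -0.01 over pairs with different numbers. The replicate block gave 4 and 2 of the 10 genes called by diet in 129S1/SvImJ and in C57BL/6J. Of all 14533 genes it called 1499 and 1746. By strain it gave 4 on chow and 2 on the high-fat diet, where 3558 and 5188 of all genes were called. With the block the 3 ratio differences were 2.174, -0.4098 and 0.5716. With 5 or 6 pairs, exact permutation tests of these could not pass the adjusted threshold whatever the values.
The number of all genes called in the interaction, 43, was 297 with DESeq2, 47 with limma and 5 to 170 without single libraries. Depth limits Id1, with 6 to 124 counts per library, and Bmp6, with 42 to 142.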
